A study of Rattus norvegicus with 9 samples.

Results

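The 3 control libraries of a study of TCF7L2 in heart muscle cells were described on their own, out of 9 libraries in 3 groups of 3. They were chosen by their sample titles, which name lenti-NC, the lentiviral vector control. Their deposited files are named for GFP instead, and the labels do not say whether the control vector carries GFP. The cells were primary neonatal rat cardiomyocytes, labelled WT and taken from Sprague Dawley rats (SD in the labels) aged 1 to 2 days, whose hearts were dissociated with collagenase and enzymes of the pancreas. They were kept in culture for 18 to 20 h, exposed to lenti-NC for 16 h and cultured for another 48 h in medium with 10% serum. Uninfected cells were not analysed here, so every level below belongs to cells that had met a lentivirus. The labels mention neither pooling of hearts nor separate cultures for the replicates, so the spread given here may be technical.

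Newborn heart cells in culture are a standard model of the beating cardiomyocyte. At birth the rat heart is changing its contractile and metabolic isoforms: fetal members of a family give way to adult ones over the first weeks of life. Enzymatic digestion also releases fibroblasts, endothelial cells, smooth muscle cells and macrophages, and fibroblasts divide in serum while most cardiomyocytes stop. The transcriptome of such a culture is therefore read by 3 kinds of ratio: adult to fetal isoforms, atrial to ventricular genes, and cardiomyocyte genes to those of other heart cells.

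Levels are the authors' FPKM values (fragments scaled to gene length and library size), which allow genes of different length to be compared within a library. They are given as mean ± SD over the 3 libraries, or as 3 values in the order of replicates 1, 2 and 3. The libraries held 15143338, 15146823 and 15259536 expected counts (fragments estimated per gene), and 13294, 13351 and 13312 genes had a value. In all, 13941 genes had a value in at least 1 of the 3 and 12750 in each of them. No groups were compared and no test was run, since a 2-sided paired exact test over 3 libraries cannot go below 0.25. In bulk RNA, fewer cells of a type and less RNA per cell cannot be told apart.

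The culture's label was checked first against 5 markers. Myh6, the α-myosin heavy chain of heart muscle, stood at 1822, 1870 and 1800 FPKM. Casq2, the calcium-storing protein of the cardiac sarcoplasmic reticulum, stood at 466, 481 and 484 FPKM. Both cardiomyocyte genes were high and tight in all 3 libraries. Dcn, the matrix proteoglycan decorin made by fibroblasts, lay above Casq2 in every library, at 498, 633 and 575 FPKM. Pecam1, an adhesion molecule of endothelial cells, was far lower at 2.02, 2.56 and 2.67 FPKM, and Cd68, a lysosomal protein of macrophages, lay at 8.62, 8.24 and 7.14 FPKM. The lowest of 10 cardiomyocyte markers, Ryr2, averaged 47.7 FPKM, and the lowest of 12 fibroblast markers, Tcf21, averaged 42.1 FPKM. The label cardiomyocytes thus held for marker genes, with fibroblast genes at levels of the same order beside them.

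The transcriptome was led by a secreted hormone. Nppa, the precursor of atrial natriuretic peptide, was the most abundant gene with a value, at 12934, 14377 and 15307 FPKM, and it alone held 2.75% ± 0.191 of the summed FPKM. Actc1, cardiac α-actin, followed at 9717, 9177 and 9018 FPKM. These 2 genes stood apart from the rest: the next was the translation factor Eef1a1 at 4604 ± 143 FPKM. Nppa was lowest in replicate 1 and Actc1 highest there, and their order was the same in all 3 libraries. Of the 30 most abundant genes, 7 encode striated contractile proteins, namely Actc1, the light chains Myl2 (4292 ± 152 FPKM) and Myl3 (2812 ± 59.3 FPKM), troponin T Tnnt2 (2958 ± 87.1 FPKM), tropomyosin Tpm1, Myh6 and Myh7. Together these 7 genes held 4.95% ± 0.0985 of the summed FPKM.

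Another 6 of the 30 are genes of the extracellular matrix. Sparc, a collagen-binding glycoprotein, reached 3459 ± 68.3 FPKM, Col1a1 of type I collagen 3027 ± 107 FPKM, and the proteoglycan Bgn 2952 ± 4.88 FPKM. Fn1, fibronectin, stood at 2068 ± 43.6 FPKM and Col1a2 at 1911 ± 29.3 FPKM. Mgp, an inhibitor of calcification, was the least even of them, at 2319, 2507 and 2920 FPKM. The 6 matrix genes summed to 3.10% ± 0.0324 of the FPKM, close to the 3.16% ± 0.215 held by Nppa and Nppb. Genes of smooth muscle and the actin cytoskeleton took 5 places, with Acta2 at 2860 ± 16.7 FPKM and its companion Tagln at 1480 ± 36.3 FPKM. The remaining places went to 4 genes of energy metabolism (Gapdh, Cox6a2, Atp5b and Aldoa), 3 of translation, and to Ankrd1, Tpt1 and the iron store Fth1. Ankrd1, a stretch-responsive partner of titin and a repressor of cardiac transcription, stood at 2485 ± 26.7 FPKM.

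**Figure D1:**
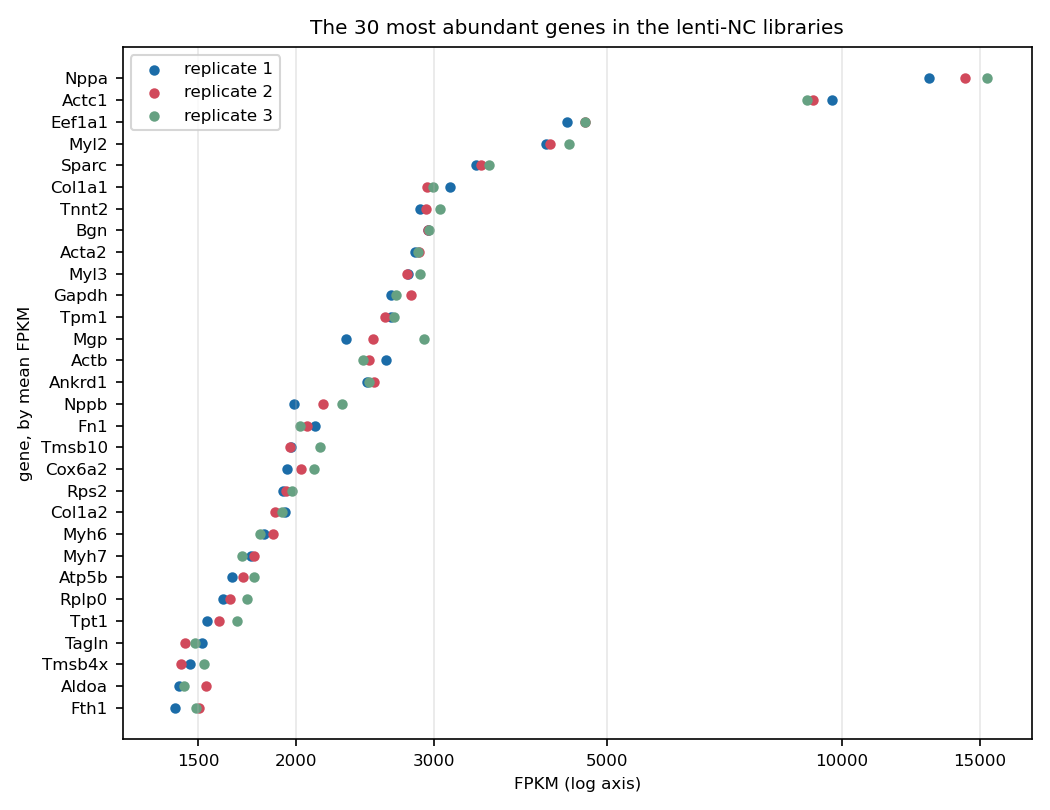
FPKM (horizontal, log axis) of the 30 genes with the highest mean, 1 point per lenti-NC library, genes ordered by mean. Nppa (12934 to 15307 FPKM) and Actc1 (9018 to 9717 FPKM) stand apart from the other 28, of which Eef1a1 has the highest mean, 4604 FPKM.

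The expression was spread over many genes in spite of these leaders. The top 10 genes held 9.76% ± 0.0940 of the summed FPKM, the top 100 held 30.8% ± 0.274 and the top 1000 held 66.4% ± 0.441. It took 342 genes to reach 50% and 4215 to reach 90%. The median gene with a value stood at 8.18 FPKM, the 99th percentile at 593 FPKM. Classes were drawn by gene symbol, which also takes in names such as Rps19bp1 and Atp5sl and misses LOC688869 (Cox6b1). By this rule, 84 genes with symbols of cytosolic ribosomal proteins summed to 11.3% ± 0.370 of the FPKM. They had 3.78% ± 0.168 of the counts, since they are short. For 78 genes with symbols of the nuclear-encoded respiratory chain and ATP synthase the sums were 4.36% ± 0.166 and 1.82% ± 0.0814. The 27 collagen genes, which are long, had 1.57% ± 0.0547 of the FPKM and 4.37% ± 0.104 of the counts. Mitochondrially encoded genes were not analysed here, and neither was titin (Ttn), a giant of the sarcomere, so no share above includes them.

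Promoter letters of the leaders were compared with those of all genes, as a description and without a test. Promoters from RefSeq (build GRCr8, 250 bases before to 50 after each annotated start) were at hand for 21 of the 30 most abundant genes. The letters TATAAA, the core of the TATA box, were searched on the gene strand from position -45 to -16. They occurred in 4 of the 21 (19%) against 1.79% of all 27457 promoters and 1.24% of the 8517 promoters of genes at 1 FPKM or more. The 4 are Nppa, Gapdh and the ribosomal genes Rps2 and Rplp0. Their last 50 bases before the start are shown because they carry the match, with TATAAA in capitals and all letters 5′ to 3′ on the gene strand.
Nppa (chr5:163712134-163712183, + strand): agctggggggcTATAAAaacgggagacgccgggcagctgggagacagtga
Gapdh (chr4:159652468-159652517, - strand): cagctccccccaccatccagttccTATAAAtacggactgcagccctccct
Rps2 (chr10:14251798-14251847, + strand): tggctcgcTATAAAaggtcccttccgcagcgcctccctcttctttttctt
Rplp0 (chr12:46718391-46718440, - strand): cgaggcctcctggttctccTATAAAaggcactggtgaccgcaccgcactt
The match starts at -39, -26, -42 and -31. Over 100 leaders it occurred in 7 of 75 promoters (9.33%). Anywhere in the 300 bases and on either strand, TATAAA was found in 6 of the 21 (28.6%) and in 14.3% of all promoters. Its share was 6.58% in the promoters of genes at 1 FPKM or more. On either strand of the 300 bases, CATTCC, the MCAT motif of TEAD factors, was found in 8 of the 21 (38.1%) and in 13.9% of all. In the promoters of genes at 1 FPKM or more its share was 11.2%. Over the 100 leaders it was in 12 of 75 (16%), near the share of all promoters. GGGCGG, the GC box, was found in 6 of the 21 (28.6%), in 41 of 75 (54.7%) over the 100 leaders, in 34.9% of all and in 64.4% of the promoters of genes at 1 FPKM or more. CCAAT was about as frequent in the 21 (38.1%) as in all (37.7%). These motifs may overlap each other.

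The CArG box, the binding motif of serum response factor, was found on either strand in 5 of 24 promoters (20.8%) of contractile and Z disc genes at 100 FPKM or more, against 1.64% of all promoters. The MEF2 site, bound by the MEF2 factors of muscle, was found in 2 of the 24 (8.33%) and in 0.605% of all. CATTCC occurred in 6 of the same 24, or 25%, and in 13.9% of all. AGATAA, which Gata4 and its relatives bind, occurred in 3 of the 24 (12.5%) and in 11.3% of all. Among the 8517 promoters of genes at 1 FPKM or more, the CArG box had a share of 1.23% and the MEF2 site 0.423%. CATTCC had 11.2% and AGATAA 5.61% there. The 5 with a CArG box are Actc1, where it lies just after the annotated start, Myl3, Acta1, the cytoplasmic actin Actg1 and the Z disc gene Ldb3. The 4 boxes before the start are printed with 15 bases on each side, the box in capitals.
Myl3 (chr8:119616982-119617021, + strand): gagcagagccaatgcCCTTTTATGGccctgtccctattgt
Acta1 (chr19:68784264-68784303, - strand): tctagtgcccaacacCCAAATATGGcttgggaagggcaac
Actg1 (chr10:106121017-106121056, - strand): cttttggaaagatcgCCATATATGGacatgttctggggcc
Ldb3 (chr16:9924707-9924746, - strand): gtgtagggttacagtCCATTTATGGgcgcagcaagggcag
The boxes of Myl3, Acta1 and Actg1 start at -97, -94 and -90, that of Ldb3 at -52. A match describes these letters only. The genes that carry one ranged from 254 ± 21.0 FPKM (Acta1) to 9304 ± 366 FPKM (Actc1).

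The contractile families differed in how far their members lay apart, from the 4 tropomyosins to the myosin heavy chains, some of which had no counts. Among the myosin heavy chains, Myh6 and the slow β chain Myh7 stood nearly level. Myh7 was at 1753, 1769 and 1706 FPKM, and the ratio of Myh6 to Myh7 was 1.04, 1.06 and 1.06. Myh6 was thus a little above Myh7 in 3 of 3 libraries. The expected counts of both were not whole numbers in any library, so fragments were divided between similar sequences by estimation, and how that division moves a ratio so close to 1 was not tested. Non-muscle Myh9 (157 ± 9.30 FPKM) and Myh10 (80.4 ± 2.69 FPKM) came next, then smooth muscle Myh11. The skeletal genes Myh4 and Myh8 had no counts, and 3 counts, the limit that a count of 0 allows, correspond to 0.197 to 0.198 CPM (counts scaled to library size).

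Light chains were of the ventricular kind. Myl2, the ventricular regulatory chain, stood at 4181, 4230 and 4465 FPKM, and its atrial counterpart Myl7 at 57.4, 56.8 and 60.7 FPKM, a ratio of 73.6 ± 0.825. Of the essential chains, ventricular Myl3 exceeded atrial Myl4 (207, 191 and 203 FPKM) by a factor of 14 ± 0.548. The ranges of each pair were far apart. Myl9 (934 ± 37.3 FPKM) and Myl6 (908 ± 40.9 FPKM), light chains of smooth muscle and non-muscle myosin, were not separated: Myl9 was higher in 2 of 3 libraries.

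Actin genes showed 3 sources of filament at once. Behind Actc1 came smooth muscle Acta2 at 2840, 2870 and 2869 FPKM, followed by cytoplasmic Actb at 2510 ± 89.6 and Actg1 at 1058 ± 15.2 FPKM. Skeletal Acta1, expressed in the fetal and in the stressed heart, was far lower at 275, 252 and 234 FPKM, so Actc1 exceeded it by a factor of 36.8 ± 1.69. Actc1 exceeded Acta2 by a factor of 3.25 ± 0.147. The counts of Actc1, Acta2, Acta1, Actb and Actg1 were not whole numbers in any of the 3 libraries. Actin coding sequences are nearly alike, and how their shared fragments were divided was not tested.

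Troponins included both the adult and the fetal inhibitory subunit. Tnni3, the adult cardiac troponin I, stood at 485, 526 and 556 FPKM. Tnni1, the slow skeletal form that the fetal heart uses, stood at 382, 410 and 423 FPKM. Tnni3 was above Tnni1 in every library, by a factor of 1.29 ± 0.0221, and counts of both were whole, 5935, 6434 and 6853 against 4624, 4962 and 5164. Both were lowest in replicate 1 and highest in replicate 3, and their ratio varied less than either level. Troponin T was almost wholly cardiac: Tnnt2 had 2958 ± 87.1 FPKM, slow skeletal Tnnt1 0.793 ± 0.135 FPKM and fast skeletal Tnnt3 2.03 ± 0.475 FPKM. Tnnc1, the cardiac calcium sensor, stood at 1427 ± 45.1 FPKM and fast skeletal Tnnc2 had 2, 1 and 1 counts. Tropomyosin genes ran from Tpm1 (2638 ± 35.7 FPKM) over Tpm2 (652 ± 17.8 FPKM) and Tpm4 (459 ± 3.47 FPKM) to Tpm3 (124 ± 4.76 FPKM).

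**Figure D2:**
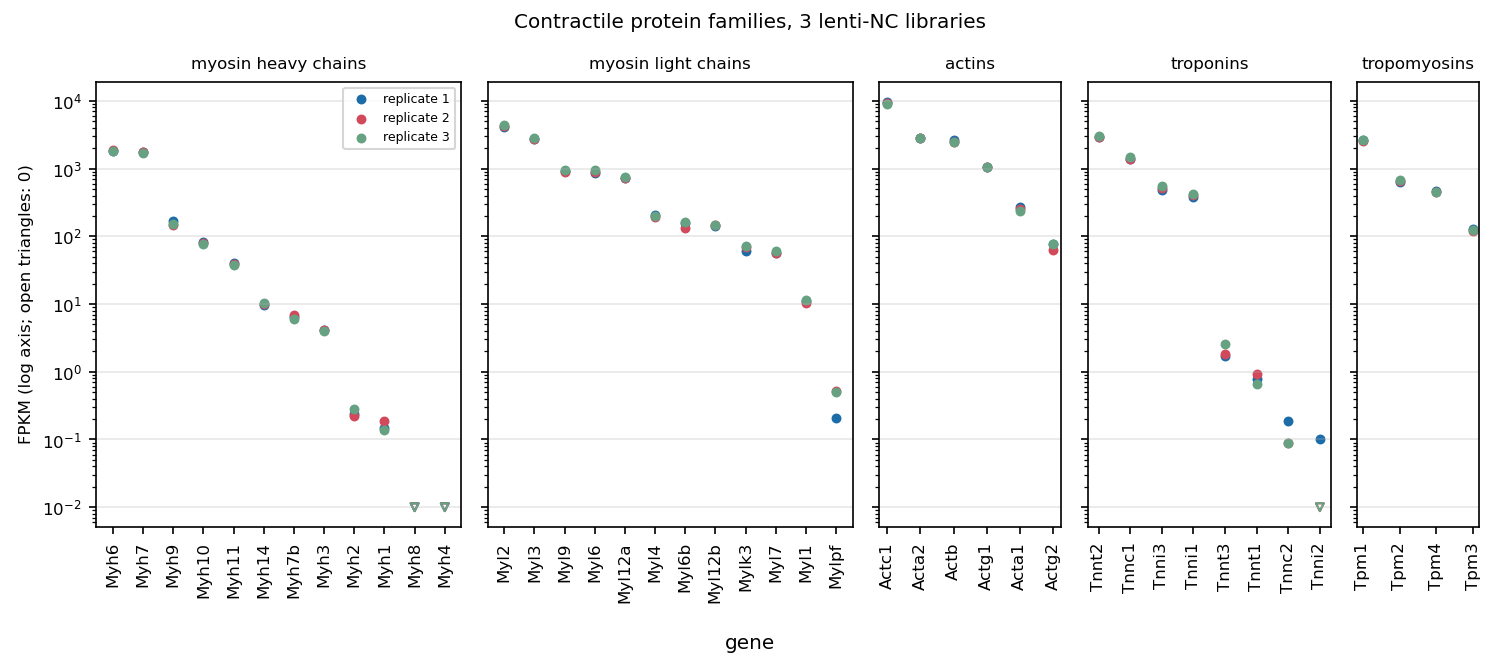
FPKM (vertical, log axis) of every member of 5 contractile families, 1 point per lenti-NC library and open triangles for 0, genes ordered by mean within a family. Myh6 and Myh7 lie side by side near 1800 FPKM, whereas Tnnt2 and Tnnt1 lie at 2958 and 0.793 FPKM.

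Thick filament and Z disc genes completed the sarcomere. Mybpc3, the cardiac myosin-binding protein C, stood at 270 ± 0.878 FPKM, and the M band genes Myom1 and Myom2 at 90.6 ± 2.79 and 72.9 ± 13.4 FPKM. Myom2 varied more, with 58.5, 85.0 and 75.2 FPKM and replicate 1 lowest. The fast-type Mybpc2 had 21.3 ± 1.14 FPKM. In the Z disc list, Ankrd1 led, followed by the intermediate filament Des (919 ± 32.1 FPKM), the muscle α-actinin Actn2 (544 ± 12.6 FPKM) and the muscle LIM protein Csrp3 (541 ± 22.8 FPKM). Actn2 and Csrp3 could not be ordered, since Actn2 was higher in 1 of 3 libraries only. Actn2 exceeded the non-muscle Actn1 (188 ± 15.3 FPKM) by a factor of 2.91 ± 0.195.

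Among calcium handling genes with a value, the cardiac forms of the pump and of calsequestrin led, and skeletal Casq1 was also high. Fkbp1a, second to Casq2 in the list of calsequestrins and release channels, stood at 335 ± 9.38 FPKM. Its relative Fkbp1b was far lower, at 9.64 ± 0.571 FPKM. Ryr1, Ryr3 and Asph were not analysed here. The pump Atp2a2 (SERCA2) stood at 972, 1107 and 1064 FPKM and its inhibitor Pln, phospholamban, at 729, 781 and 788 FPKM. Both were lowest in replicate 1. The other pump genes Atp2a1 and Atp2a3 had 0.813 ± 0.129 and 0.0733 ± 0.0153 FPKM, the latter from 6, 5 and 4 counts. Sarcolipin (Sln), the atrial pump inhibitor, had 6.92 ± 0.221 FPKM, and Pln exceeded it by a factor of 111 ± 5.84. Casq1, the calsequestrin of skeletal muscle, reached 152, 149 and 147 FPKM, so that Casq2 exceeded it by a factor of 3.19 ± 0.122. The release channel Ryr2 stood at 47.7 ± 1.29 FPKM and the inositol trisphosphate receptor Itpr2 at 2.23 ± 0.0985 FPKM, a ratio of 21.4 ± 0.525. Jph2, which ties the sarcoplasmic reticulum to the surface membrane, had 98.8 ± 3.19 FPKM and the sodium-calcium exchanger Slc8a1 101 ± 1.97 FPKM.

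The 2 T-type calcium channel genes, used by the fetal ventricle and by pacemaker cells, lay on either side of the adult L-type gene. Cacna1g (T-type) stood at 57.7, 58.8 and 54.7 FPKM and Cacna1c (L-type) at 21.5, 22.1 and 20.6 FPKM. The ranges of these genes did not overlap. Cacna1h, the other T-type gene, stood at 18.4, 19.4 and 18.5 FPKM and was below Cacna1c in all 3 libraries, with a ratio of Cacna1c to Cacna1h of 1.14 ± 0.0247. Of the pacemaker channels, Hcn2 stood at 15.8 ± 1.19 FPKM and Hcn4, the main form of the sinus node, at 4.76 ± 0.366 FPKM. The repolarising potassium channels Kcnh2 (29.3 ± 0.897 FPKM) and Kcnq1 (26.2 ± 1.38 FPKM) led their list, ahead of Kcnj11 of the ATP-sensitive channel (8.37 ± 0.382 FPKM) and Kcnj5 (7.79 ± 0.155 FPKM). Kcnj2, the inward rectifier that sets the resting potential of ventricular cells, stood at 7.66 ± 0.749 FPKM and was not separated from Kcnj5.

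The connexins had a clear main form. Gja1 (connexin 43), the ventricular gap junction protein, stood at 172, 202 and 197 FPKM. It exceeded Gja5 (connexin 40, of atria and conduction system) by a factor of 3.27 ± 0.188 and Gjc1 (connexin 45) by a factor of 8.87 ± 0.596. Replicate 1 was the lowest for Gja1. Among receptors for the autonomic nervous system, muscarinic Chrm2 (28.1 ± 0.784 FPKM) and β1-adrenergic Adrb1 (24.6 ± 1.09 FPKM) led. Adra2c had no counts.

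Nppb, the precursor of brain natriuretic peptide, stood at 1988, 2169 and 2293 FPKM, and Nppa exceeded it by a factor of 6.60 ± 0.0873. Both peptides were lowest in replicate 1 and highest in replicate 3, and the ratio moved little. Their receptors were low, with Npr2 at 21.8 ± 1.35 FPKM, the clearance receptor Npr3 at 18.8 ± 2.30 FPKM and Npr1 at 3.24 ± 0.389 FPKM. Nppc, precursor of the C-type peptide, had 0.790 ± 0.429 FPKM.

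Energy metabolism mixed muscle isoforms with other forms, and which cells of the culture made each was not tested. Cytochrome oxidase subunit Cox6a2, the heart and muscle form, stood at 1946, 2028 and 2110 FPKM and exceeded the ubiquitous Cox6a1 (910 ± 19.8 FPKM) by a factor of 2.23 ± 0.0427. For subunit VIII the order was the reverse: the muscle form Cox8b stood at 99.1, 138 and 132 FPKM, at 0.161 ± 0.0201 of the ubiquitous Cox8a (761 ± 48.5 FPKM). Both pairs kept their order in every library. Slc25a4 (ANT1), the adenine nucleotide carrier of muscle, exceeded Slc25a5 (ANT2) by a factor of 3.06 ± 0.142. Fabp3, the heart fatty acid binding protein, stood at 574 ± 42.3 FPKM and exceeded Fabp5 by a factor of 7.17 ± 0.908. Cpt1b, the muscle enzyme that admits fatty acids to mitochondria, stood at 43.1 ± 4.54 FPKM and exceeded Cpt1a (18.3 ± 1.80 FPKM) by a factor of 2.36 ± 0.109. Myoglobin (Mb) had 110, 131 and 116 FPKM.

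Glycolytic genes were mostly of the ubiquitous forms, and which cells made them was not tested either. The glucose transporter Slc2a1 (GLUT1), the form of the fetal heart, stood at 94.4, 101 and 92.2 FPKM, and the insulin-responsive Slc2a4 (GLUT4) at 24.8, 27.2 and 26.9 FPKM. Slc2a1 exceeded Slc2a4 by a factor of 3.65 ± 0.198. Hk1 exceeded Hk2 by a factor of 4.10 ± 0.387. Pfkm, the muscle phosphofructokinase, stood at 65.05 ± 1.46 FPKM, at 0.486 ± 0.0218 of the platelet form Pfkp (134 ± 3.24 FPKM). The non-muscle Pgam1 (468 ± 12 FPKM) exceeded muscle Pgam2 by a factor of 51.0 ± 5.47, and Eno1 (1108 ± 33.4 FPKM) exceeded muscle Eno3 (8.73 ± 0.435 FPKM) by a factor of 127 ± 9.58. In both of these enzymes the muscle form was therefore the minor one. Ldha (873 ± 35.4 FPKM) exceeded the heart form Ldhb (441 ± 24.7 FPKM) by a factor of 1.98 ± 0.0577. Among creatine kinases, Ckm of muscle (107 ± 2.22 FPKM) and Ckb of brain (88.9 ± 5.09 FPKM) were close, with a ratio of 1.21 ± 0.0918. The mitochondrial form of striated muscle, Ckmt2, had 4.52 ± 0.215 FPKM.

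**Figure D3:**
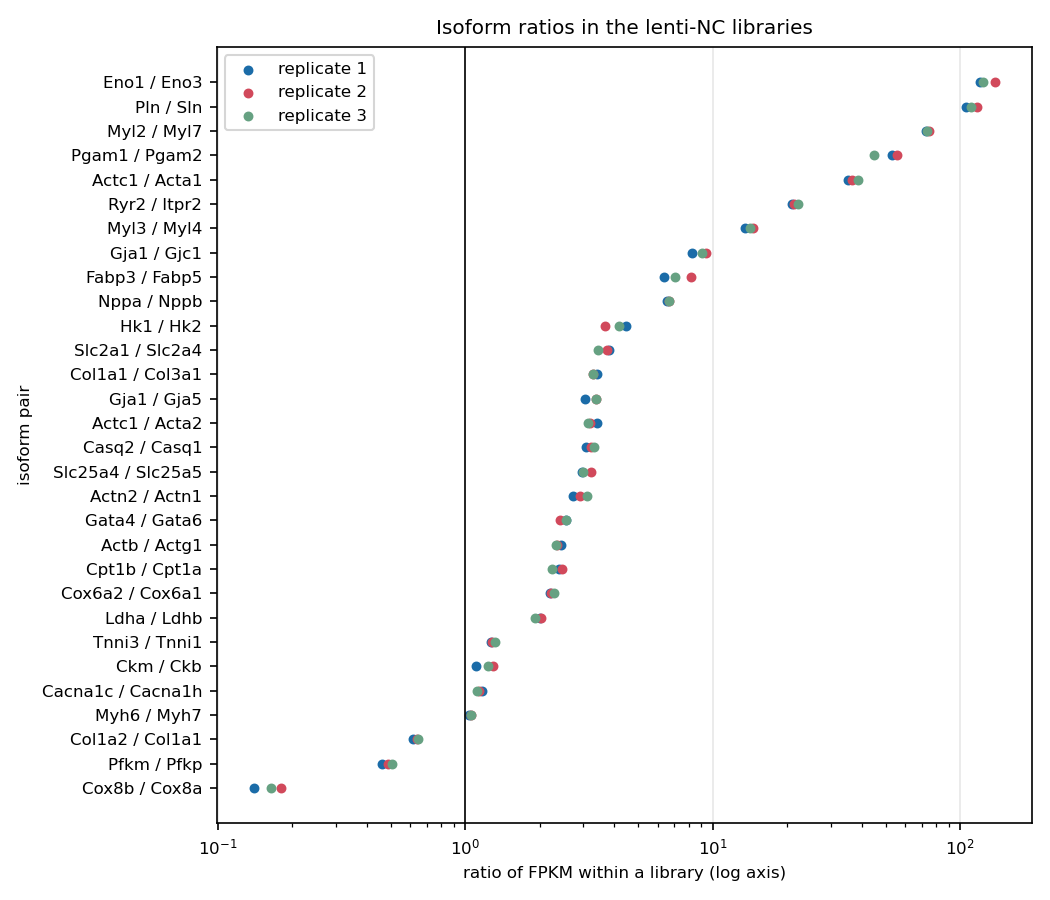
Ratio of FPKM within each library (horizontal, log axis) for 30 isoform pairs in which both genes had at least 10 expected counts in every library, 1 point per lenti-NC library, with a line at 1. Of these, Cox8b to Cox8a, Pfkm to Pfkp and Col1a2 to Col1a1 lie below 1.

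Of 37 isoform pairs chosen, 36 had values for both genes, and each kept its direction in all 3 libraries: the first-named gene was higher in 33 and lower in 3. The SD of a ratio was 4.63% of its mean in the median pair and 37.7% at most, in Tnnc1 to Tnnc2, which rests on 1 or 2 counts. Over all families, 206 pairs of neighbours in the order of levels were examined, and 179 kept their order in every library. In 167 the ranges did not touch.

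Transcription factors of the heart were at lower levels than the contractile genes. Gata4 (116 ± 1.90 FPKM) and Tbx20 (116 ± 7.68 FPKM) were not separated, and Nkx2-5, a founding factor of the cardiac lineage, stood at 96.5, 97.3 and 96.5 FPKM. Gata4 exceeded Gata6 (46.3 ± 2.25 FPKM) by a factor of 2.51 ± 0.0790. Mef2d (52.4 ± 2.34 FPKM) and Mef2a (51.4 ± 1.80 FPKM), which drive muscle genes, were not separated either, and Hand2 and Irx3 followed at 44.1 ± 1.86 and 30.1 ± 0.845 FPKM. Irx6 had no counts, and Mef2c was not analysed here.

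Chamber genes were ventricular by their light chains, while the rest of the lists was mixed. Beside Myl2 and Myl3, the ventricular list was led by Lbh (454 ± 12.5 FPKM), a cofactor of limb and heart development, and by Xirp2 (23.9 ± 4.55 FPKM), an actin-binding protein of the intercalated disc. Xirp2 differed between libraries, at 28.8, 23.0 and 19.9 FPKM. Of 10 ventricular genes, 9 were at 1 FPKM or more in every library and 3 reached 100 FPKM. Ventricular Irx4 (22.9 ± 1.33 FPKM) lay below the atrial genes Myl4, Myl7 and Gja5. Of 13 atrial genes, 11 were at 1 FPKM or more in every library, but only Nppa and Myl4 reached 100 FPKM. Of all 13941 genes with a value, 10412 reached 1 FPKM in every library and 791 reached 100 FPKM. Reaching 1 FPKM was thus common and does not set either list apart. Nppa, Myl4, Myl7 and Gja5 (58.2 ± 1.76 FPKM) led the atrial list, and its median was 6.92 FPKM against 15.3 FPKM for the ventricular list. Nppa is also made by the fetal ventricle, so alone it does not mark atrial cells. The pacemaker list was led by Cacna1g and Gjc1, with Cntn2, a marker of the conduction fibres, at 7.20 ± 0.362 FPKM, and had a median of 4.05 FPKM.

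The listed fibroblast genes matched the listed cardiomyocyte genes in level. The 12 fibroblast markers summed to 10763 ± 96.8 FPKM and the 10 cardiomyocyte markers to 10324 ± 192 FPKM, and the medians of the lists were 526 and 533 FPKM. As a percentage of the cardiomyocyte sum, the fibroblast sum was 107%, 104% and 102%. Col1a1, Fn1 and Col1a2 led, followed by the intermediate filament Vim (1250 ± 5.60 FPKM). Col1a1 exceeded Col3a1 (909 ± 12.1 FPKM) by a factor of 3.33 ± 0.0761, and Col1a2 stood at 0.632 ± 0.0146 of Col1a1, with which it forms type I collagen. The basement membrane collagen Col4a1 had 944 ± 28.6 FPKM. Several of these genes, Vim and Fn1 among them, are made by more than 1 cell type, so the sums give RNA and not shares of cells. The cardiomyocyte list leaves out abundant genes such as Actc1 (9304 ± 366 FPKM) and Myl2 (4292 ± 152 FPKM). The match, and every percentage of the cardiomyocyte sum, therefore depends on which genes were listed.

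Smooth muscle and pericyte genes were next. All 12 markers were at 1 FPKM or more in every library, as were 10412 of all 13941 genes with a value. Their sum was 48.1% ± 1.11 of the cardiomyocyte sum, most of it from Acta2 and Tagln. By the medians of the lists the figure was 6.63%. Acta2 and Tagln are also made by myofibroblasts and by immature cardiomyocytes. Pdgfrb, the growth factor receptor of pericytes and fibroblasts, followed at 173 ± 1.93 FPKM and the contractile regulator Cnn1 at 165 ± 7.67 FPKM. The median of the list was 35.0 FPKM. Epicardial and mesothelial markers were lower, at a median of 7.10 FPKM, led by mesothelin Msln (13.7 ± 1.64 FPKM), the retinoic acid enzyme Aldh1a2 (10.4 ± 1.59 FPKM), Tbx18 (8.19 ± 0.807 FPKM) and Upk1b (7.61 ± 0.450 FPKM).

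Endothelial and immune cells left little RNA. The 12 endothelial markers summed to 46.0 ± 3.05 FPKM, which is 0.445% ± 0.0261 of the cardiomyocyte sum, with a median of 1.96 FPKM and none at 0. Flt1, a receptor for vascular endothelial growth factor, was the highest at 17.7 ± 0.455 FPKM, before its relative Kdr (8.03 ± 1.19 FPKM), the junction protein Esam (5.24 ± 0.165 FPKM) and the secreted Egfl7 (4.62 ± 0.877 FPKM). Of the lymphatic list, Pdpn led at 96.6 ± 4.39 FPKM and Flt4 had 20.2 ± 1.33 FPKM. Which cells of the culture made these transcripts was not tested. Prox1, which defines lymphatic endothelium and is also made by cardiomyocytes, had 6.39 ± 0.526 FPKM, whereas Lyve1 had 0.437 ± 0.154 FPKM.

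The 12 macrophage markers summed to 24.8 ± 0.352 FPKM, or 0.240% ± 0.00763 of the cardiomyocyte sum and 0.0818% by the medians of the lists. Only 3 of them, Cd14 (9.95 ± 0.466 FPKM), Cd68 and lysozyme Lyz2 (3.61 ± 0.735 FPKM), were at 1 FPKM or more in every library, and the complement gene C1qb had no counts. Cd14 and Cd68 can also be made by other cells. None of the 6 lymphocyte markers with a value in the series reached 1 FPKM, and Nkg7 of natural killer cells had no counts. In the mast cell and granulocyte list only Kit (4.36 ± 0.160 FPKM) did, and Cpa3, the carboxypeptidase of mast cells, had none. Red cell genes were near the floor: Ahsp, which stabilises α-globin, was the highest of 9 at 0.990 ± 0.325 FPKM, and Hba2 had no counts.

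Schwann and neural markers had a median of 0.867 FPKM. Ncam1 (107 ± 2.86 FPKM), an adhesion molecule that cardiomyocytes also make, and the tubulin Tubb3 (30.2 ± 2.23 FPKM) were the exceptions, followed by Dbh of noradrenaline synthesis at 4.42 ± 0.307 FPKM. No adipocyte marker reached 1 FPKM, and Plin1 and Retn had no counts. Of the skeletal muscle lineage genes only the acetylcholine receptor subunit Chrna1 did, at 1.88 ± 0.197 FPKM.

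**Figure D4:**
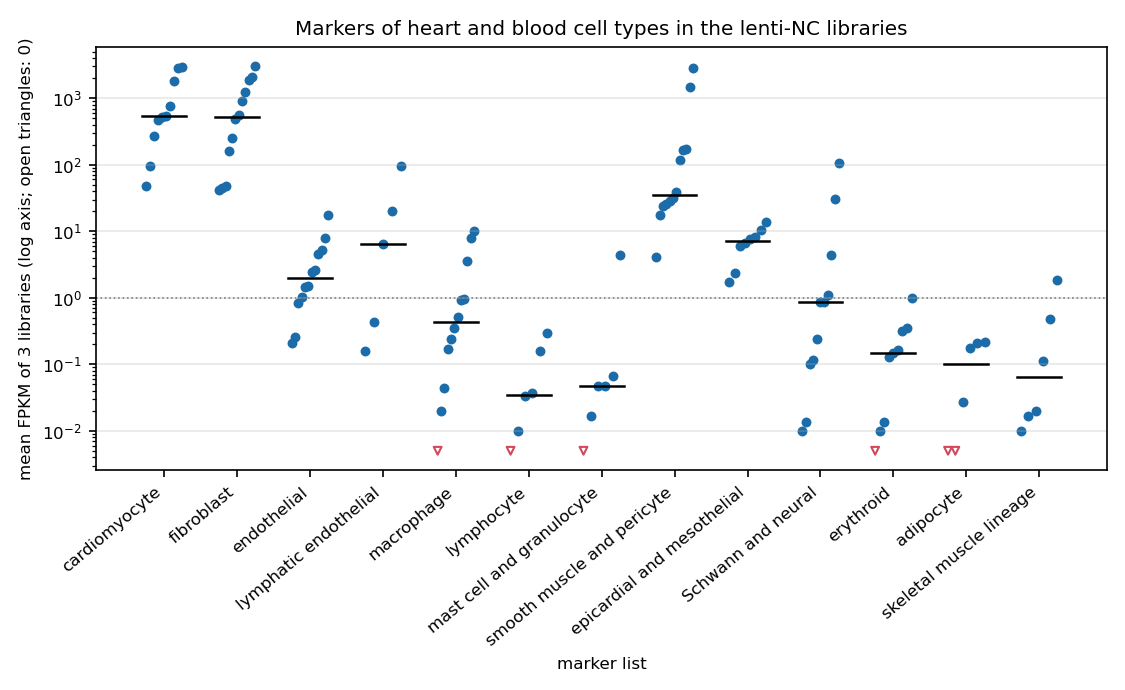
Mean FPKM over the 3 lenti-NC libraries (vertical, log axis) of each marker in 13 cell type lists, with a bar at the median of a list, a dotted line at 1 FPKM and open triangles for 0. Cardiomyocyte and fibroblast lists have medians of 533 and 526 FPKM, and the macrophage, lymphocyte, erythroid and adipocyte medians lie below 1 FPKM.

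Cell cycle genes were present at modest levels. All 16 were at 1 FPKM or more in every library, as were 10412 of all 13941 genes with a value, and their median was 12.1 FPKM. The D-type cyclins Ccnd2 (109 ± 2.79 FPKM) and Ccnd1 (70.3 ± 3.87 FPKM) led, then the replication clamp Pcna (30.8 ± 2.10 FPKM) and the mitotic kinase Cdk1 (23.0 ± 1.93 FPKM). Which cells made these transcripts was not tested. Among genes of response to injury, the matrix regulator Ctgf had 1343 ± 10.3 FPKM, the monocyte chemokine Ccl2 933 ± 30.8 FPKM and Timp1 259 ± 14.1 FPKM. All 12 of that list were at 1 FPKM or more in every library, and 8 at 100 FPKM or more, a level that 791 of all genes with a value reached. Of the stress list, the small heat shock protein Hspb1 (418 ± 4.59 FPKM), the endoplasmic reticulum chaperone Hspa5 (307 ± 9.47 FPKM) and the early gene Junb (111 ± 5.55 FPKM) led.

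Imprinted growth genes, expressed from 1 parental copy and active before birth, were uneven. Igf2r (206 ± 1.48 FPKM) and Grb10 (138 ± 6.43 FPKM), which restrain growth, were the highest. H19 stood at 22.9, 34.2 and 23.3 FPKM, highest in replicate 2, and Ndn at 25 ± 0.344 FPKM. Transcripts of both sex chromosomes were present: LOC100911498, which RefSeq now names Xist, had 31.2 ± 0.875 FPKM, and the Y-linked Eif2s3y had 14.5 ± 0.323 FPKM. The other Y-linked genes Ddx3y and Usp9y were lower, at 0.967 ± 0.0404 and 0.443 ± 0.0153 FPKM. Of the genes named in the study, Tcf7l2 stood at 9.69, 8.79 and 8.24 FPKM and Car2, carbonic anhydrase 2, at 1.32, 0.770 and 1.13 FPKM. Tcf7l2 lay just above the median gene with a value, and Car2 below it.

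Detection was stable between libraries. In all 3, 10412 genes reached 1 FPKM, 6163 reached 10, 791 reached 100 and 52 reached 1000. Of 18539 protein-coding genes with a curated RefSeq transcript, 73.4% had counts and 55.4% were at 1 FPKM or more. Reference genes that the series does not list are taken as without counts, here and in the families below. Whether the authors' annotation held them is not known, so unlisted and silent genes cannot be told apart. Large families of sensory receptors had few members with counts: 43 of 1225 olfactory receptor genes had counts and 2 reached 1 FPKM, and 16 of 139 vomeronasal receptor genes had counts. Of 38 HOX genes, which pattern the body axis, 14 had counts and 1, Hoxc8 at 2.09 FPKM, reached 1 FPKM in every library. Hoxc8 was named after its value was seen. The series as a whole listed 14607 genes. In lenti-NC 666 of them had no counts. Even in the libraries where these genes were counted, their peak count was typically 1, and for 2 genes it reached 10.

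Most genes of other organs on the lists were below 1 FPKM, and 5 reached it in every library. Albumin (Alb) had 1, 2 and 0 counts, and among liver genes only transthyretin (Ttr, 1.52 ± 0.290 FPKM) reached 1. Of 3 pancreatic genes with a value, Ctrb1 was the highest at 0.400 ± 0.217 FPKM. Of 7 kidney genes, Podxl and Nphs1 of the glomerular filter had 2.34 ± 0.241 and 1.56 ± 0.0850 FPKM, and of 7 skin genes Krt10 had 1.4 ± 0.218 FPKM. The aquaporin Aqp2 of the kidney, the neuronal Rbfox3 and the skin genes Krt15, Ivl and Dsg3 had no counts. Mbp (10.7 ± 1.54 FPKM), myelin basic protein, alone in the brain and retina list reached 1 FPKM in every library. It lay above the median gene with a value. Of 9 genes of that list with a value, 7 averaged below 1 FPKM, and Slc17a7 was the next highest after Mbp.

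A few microRNA hairpins had counts, although the libraries were made from poly(A) RNA. Fragments there come from long precursor or host transcripts and do not measure the mature form. Whether counting used strand is not given in the sources used here. Of 419 hairpins in the RefSeq table, 65 had counts, with a median of 1 count per library, and 3 had at least 10 in every library. Mir3064 had 39, 31 and 29 counts and lies within the gene of the RNA helicase Ddx5 (206 ± 2.44 FPKM). Mir22 had 18, 33 and 38 counts, and Mir568 had 19, 17 and 10 and lies within Zbtb20. Mir22 was lowest in replicate 1, and Mir568 lowest in replicate 3. Their mature sequences in RefSeq are printed because these hairpins alone passed 10 counts, 5′ to 3′ with the seed (bases 2 to 8) in capitals.
rno-miR-3064-3p: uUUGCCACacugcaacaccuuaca
rno-miR-22-5p: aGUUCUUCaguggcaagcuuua
rno-miR-22-3p: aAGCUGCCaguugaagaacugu
rno-miR-568: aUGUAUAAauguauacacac
No seed was shared by any of the 4. Mir208b, which lies within Myh7, had 3, 2 and 1 counts against 1743 ± 32.6 FPKM for the host gene, and was named after its value was seen.

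The replicates agreed closely and were not copies of each other. Pearson's r of log2 CPM across 11507 genes averaging at least 10 counts, which are not independent replicates, was 0.996 for each of the 3 pairs. The chi-square statistic of paired counts was 3.61, 3.69 and 2.39 times its degrees of freedom for replicates 1 and 2, 1 and 3, and 2 and 3, so each pair differed by more than counting noise. The median coefficient of variation (CV) was 5.49% and the biological coefficient of variation 4.16%. The median CV fell with depth, from 21.9% in genes of 10 to 30 counts to 3.04% in genes over 10000 counts. Counting noise, taken as the inverse square root of the mean count, was 24.0% and 0.787% in these genes. A CV over 3 libraries lies below the true CV more often than above it. The median CV can thus fall under that figure without the spread being less than counting noise. Replicates differed slightly by gene length: genes of up to 1000 bases lay at -0.05, -0.0002 and 0.05 (log2) from the mean in replicates 1, 2 and 3, and those over 8000 bases at 0.05, 0.01 and -0.05. Nppa, Mgp and Nppb, all under 1000 bases, were lowest in replicate 1 and highest in replicate 3, and the part of length in this was not tested.

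Among genes averaging at least 100 counts, the widest spread belonged to Selenbp1, a selenium-binding protein, with 17.6, 3.83 and 18.4 CPM (TMM-scaled counts relative to library size). The second was LOC103689947, with 19, 39.9 and 21.6 CPM, whose deposited description names the same protein. Replicate 2 was low for the former and high for the latter. Their sum ran from 36.6 to 43.8 CPM, with a CV of 8.98% against 61.6% and 42.4% apart. The level of either identifier alone is therefore uncertain.

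The other 8 were Rsad2, Mfsd8, Ifit3, Cilp, Cmpk2, Ch25h, Angptl4 and Ankrd29, with CVs from 25.8% to 34.5%. Rsad2, an antiviral enzyme induced by interferon, stood at 11.3, 5.55 and 8.13 CPM. Ifit3, which interferon also induces, stood at 17.2, 9.85 and 11.5, and Cmpk2, a nucleotide kinase encoded beside Rsad2, at 10.5, 6.21 and 6.89. All 3 were highest in replicate 1 and lowest in replicate 2. Angptl4, the lipase inhibitor induced by fasting and low oxygen, had the reverse order at 14.5, 24.5 and 18.0 CPM. Cilp, a matrix protein, stood at 9.11, 16.1 and 11.4, also highest in replicate 2. The lowest CVs were those of Cops7a, Idh3B, Actr10, Cdc42 and Rarg, each below 0.1%. Cops7a, a subunit of the COP9 signalosome, had 118 CPM in every library, where counting noise, as the inverse square root of the count, is 2.37%. As the lowest of many genes and below counting noise, such CVs describe these 3 libraries and no property of the genes.

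**Figure D5:**
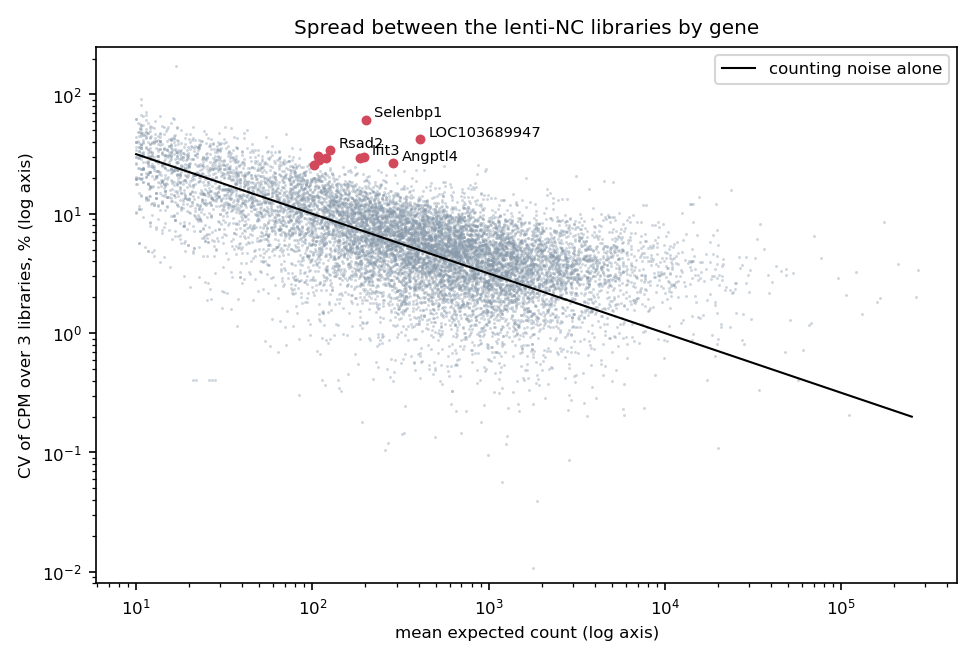
CV of TMM-scaled CPM over the 3 lenti-NC libraries (vertical, log axis, %) against mean expected count (horizontal, log axis), 1 point per gene. The 10 widest genes of at least 100 counts are in red. The line is counting noise alone, the inverse square root of the mean count. The cloud follows the line at low counts and levels off near 3% above 10000 counts, and Selenbp1 (61.6%) and LOC103689947 (42.4%) stand highest of the red points.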

How the data were processed

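Per the labels' protocols, poly(A) RNA was enriched with oligo(dT) beads, prepared with an NEBNext Ultra kit and sequenced on a BGISEQ-500. HISAT2, Bowtie2, RSEM 1.3.1, DESeq2 1.4.5 and build rn6 stand in the submitters' processing notes, without roles. The authors deposited, per the file headers, expected counts (estimated fragments per gene, not normalised), FPKM values and gene lengths, with RefSeq transcripts. Genes missing from a library's file were set to 0, and between 84.2% and 84.4% of listed expected counts were whole. FPKM was used as deposited. Expected counts were rounded for TMM scaling and dispersion in edgeR 4.0.16 (R 4.3.3, intercept only, mean of at least 10 counts), checked on simulated data, and log2 values took a pseudocount of 0.5.

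The members and lists were chosen with earlier results of these data known. Named genes were the 30 highest by FPKM, isoform pairs, up to 4 highest members of each list and those at 0, the 5 markers, Tcf7l2, Car2, and the 10 widest and 5 evenest genes of at least 100 counts. Symbols were matched as given or through RefSeq gene identifiers (GRCr8), not through synonyms. The files of the other groups served to see which genes the series lists and how high genes at 0 in lenti-NC were counted there. Limits of 3 counts cover counting error only. Some genes of these lists are not reported here.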

Additional observations from a re-analysis of the deposited data

How the results depend on the processing

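On the TPM scale the level of Nppa was 27463, against 14206 FPKM, and ratios within a library are untouched by it. The share of the top 100 genes was 28.2% by counts against 30.8% by FPKM. At a threshold of 10 FPKM 6163 genes were detected in all 3 libraries, against 10412 at 1 FPKM, 12073 at 0.1 FPKM and 11290 at 10 expected counts. By list medians the endothelial markers stood at 0.369% of the cardiomyocyte markers, against 0.445% by sums. In the same way smooth muscle and pericyte markers moved from 48.1% to 6.63%, macrophage markers from 0.240% to 0.0818%, Schwann and neural markers from 1.41% to 0.148%, and epicardial markers from 0.548% to 1.31%. Genes with fewer than 3 counts over the 3 libraries numbered 1444, against 666 with none. With expected counts over gene length in place of FPKM, 33 of 36 isoform ratios stayed above 1, 34 moved by less than 1 SD, and the largest shift was 1.12-fold, in Pln to Sln.

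With each replicate left out in turn, Nppa ran from 13655 to 14842 FPKM, the top 100 share from 30.6% to 30.9%, the genes detected from 10471 to 10477, and the endothelial share from 0.431% to 0.457%. The median CV ran from 4.18% to 4.84%, against 5.49% with all 3 libraries. A CV over fewer libraries tends to be lower, so this fall does not show a smaller spread. The count of ratios above 1 was 33 each time. A mean of 3 values cannot move by 1 SD when 1 is left out, so this does not show stability of single levels. The median CV was 5.50% with RLE scaling or deposited FPKM and 6.78% with no minimum of counts. No paired analysis was possible because no groups were compared and no result comes from a test. At 100 to 1000 counts the median CV over the 3 libraries was 5.56%, and counting noise, as the inverse square root of the count, was 5.23%. A CV of 3 values tends to lie below the true CV, so these figures are not alike. How much of the spread came from depth was not tested.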
